A study of Mus musculus with 12 samples.

Results

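The urea cycle and ammonia handling of mouse liver were followed through 10 genes of the 24983 in the count table. They are a list of named genes with known roles, picked when earlier results of these data were known. All 10 passed the filter on low counts that left 14469 genes for testing. They were measured by RNA sequencing of liver from 12 C57BL/6J mice in 4 groups of 3. The chow group ate a standard diet for 24 weeks. The NASH-diet groups, 3 in all, were fed for 24 weeks on a diet that took 40% of its calories from fat, both saturated and trans, and held added fructose and cholesterol. NASH, nonalcoholic steatohepatitis, is fat build-up in the liver joined by inflammation. An osmotic minipump implanted in these mice released polyethylene glycol alone (vehicle), oleic acid in that solvent (OA) or its nitrated form, nitro-oleic acid, in that solvent (OA-NO2). The infusion rate of either fatty acid was 5 mg/kg/day. A pump is not mentioned for the chow group, so diet and pump cannot be told apart in any comparison with chow. The labels used here name neither the sex nor the age of the mice.

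The urea cycle turns ammonia, which is toxic to the brain, into urea. It starts in the mitochondria of hepatocytes, where carbamoyl phosphate synthetase (Cps1) joins ammonia and bicarbonate and ornithine transcarbamylase (Otc) makes citrulline. It goes on in the cytosol through argininosuccinate synthetase (Ass1), argininosuccinate lyase (Asl) and arginase (Arg1), which releases urea and returns ornithine. N-acetylglutamate synthase (Nags) makes the cofactor without which Cps1 does not work. The carriers encoded by Slc25a15 (ornithine) and Slc25a13 (aspartate, also called citrin) feed the cycle across the inner mitochondrial membrane. Around the portal vein, liver glutaminase (Gls2) releases ammonia from glutamine beside the cycle. In the hepatocytes next to the central vein, glutamine synthetase (Glul) binds the ammonia that the cycle has let pass.

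Values are given as CPM, the count of a gene scaled to a common library total (counts per 1e6) after TMM scaling, which corrects totals for libraries dominated by a few strong genes. Totals ran from 8462590 (chow replicate 1) to 20613777 counts, with 15972613 the second lowest, and even the weakest member, Nags, was well above the filter in all 12 libraries. Single libraries pulled many members the same way. Chow replicate 1, the shallowest, was the highest of its group for 7 of the 10 genes. Vehicle replicate 1 was highest for 9 and vehicle replicate 3 lowest for 8, and OA replicate 3 was highest for 8 and OA replicate 1 lowest for 8. The labelled tissue was checked by albumin (Alb), a hepatocyte product, which had a mean of 111300 CPM in chow and 42380 CPM in vehicle. The replicates are separate animals by their ear tags. The p-values weigh a difference between groups against the spread between mice, estimated over all 4 groups.

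Promoter windows are shown for Glul, Slc25a13 and Otc, since Glul rose and the other two fell on the NASH diet in the comparisons that follow. RefSeq windows of 300 bases (250 before and 50 after a start site, build GRCm38.p6) were found for 6 members: Otc, Ass1, Nags, Slc25a15 (2 start sites), Slc25a13 and Glul. Capitals mark the motifs found in them. The Glul window lies at chr1:153899679-153899978 on the plus strand, that of Slc25a13 at chr6:6217124-6217423 on the minus strand and that of Otc at chrX:10252055-10252354 on the plus strand.
Glul: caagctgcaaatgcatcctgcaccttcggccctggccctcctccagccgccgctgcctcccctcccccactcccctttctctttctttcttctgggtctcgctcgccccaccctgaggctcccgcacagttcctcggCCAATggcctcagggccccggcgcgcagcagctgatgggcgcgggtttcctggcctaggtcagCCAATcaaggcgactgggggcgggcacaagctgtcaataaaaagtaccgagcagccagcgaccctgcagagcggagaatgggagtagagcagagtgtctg
Slc25a13: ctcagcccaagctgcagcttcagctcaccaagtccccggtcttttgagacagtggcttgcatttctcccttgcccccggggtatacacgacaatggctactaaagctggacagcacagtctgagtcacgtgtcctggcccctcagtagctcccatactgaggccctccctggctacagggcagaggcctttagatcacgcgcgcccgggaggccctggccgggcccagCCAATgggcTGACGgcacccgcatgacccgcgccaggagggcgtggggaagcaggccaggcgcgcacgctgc
Otc: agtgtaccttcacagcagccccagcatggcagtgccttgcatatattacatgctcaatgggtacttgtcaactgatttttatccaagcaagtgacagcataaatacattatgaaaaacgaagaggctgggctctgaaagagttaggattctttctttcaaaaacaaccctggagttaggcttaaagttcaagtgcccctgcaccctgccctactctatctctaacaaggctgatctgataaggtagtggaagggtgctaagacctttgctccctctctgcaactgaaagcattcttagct
The motifs searched on both strands were TGACGTCA (the cyclic AMP response element) and its core TGACG, which lies within it, TTGCNNAA (C/EBP), CAAAGTCCA (HNF4), TGTTCT (core of the glucocorticoid response element), CTTTGAT (TCF/LEF) and CCAAT (NF-Y). Glul held CCAAT at positions -113 and -50 from the start site, and Slc25a13 held CCAAT at -22 and TGACG at -13. CCAAT occurred in 37.4% of all 32851 windows and TGACG in 20.8%, so neither is rare. Nags held TGACG and CTTTGAT on the minus strand, the latter present in 3.73% of windows. None of the 7 motifs was found in the windows of Otc, Ass1 or Slc25a15, which says only that these letters are not in them. The base composition differed, with 44.3% G and C in the Otc window against 64.3% in that of Glul.

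The comparison of vehicle with chow asks what the NASH diet did to these genes. The cycle and its feeders were lower: 7 of the 10 members fell and 1, Glul, rose, each at an edgeR adjusted p under 0.05. Among all tested genes 8.16% were called lower and 11.1% higher. The CPM values of the groups did not overlap for 8 of 10 members, against 39.4% of all genes. The median log2 fold change over the 10 members was -0.87, beside -0.01 over all genes. In bulk tissue, fewer hepatocytes and less RNA per hepatocyte cannot be told apart.

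**Figure D1:**
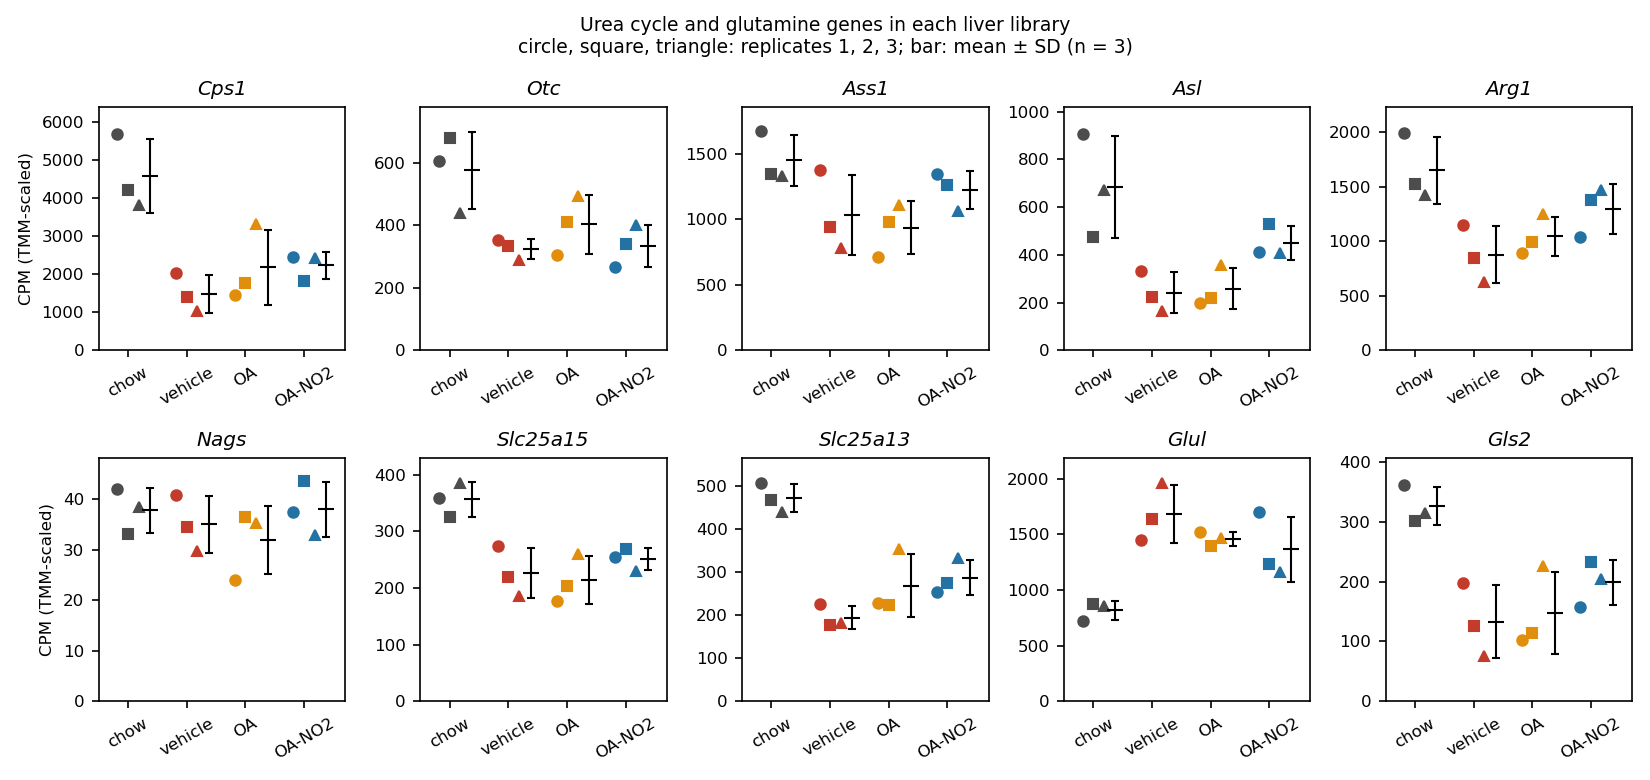
CPM of each of the 10 genes (vertical axes, starting at 0) in the 4 groups, with 1 point per mouse and the mean ± SD of the 3 mice beside it. Cps1, Asl and Slc25a13 have their lowest mean in vehicle and their highest in chow, Glul is lowest in chow, and the groups overlap for Nags.

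In the mitochondrial steps, Cps1 (ENSMUSG00000025991, GRCm38 chromosome 1: 67123026 to 67231259, plus strand) was at 5681, 4220 and 3827 CPM in the chow mice and at 2027, 1405 and 1037 CPM in the vehicle mice. Every vehicle mouse was below every chow mouse. The mean went from 4576 ± 976.8 to 1490 ± 500.5 CPM (SD, n = 3), a 3.07-fold fall (log2 fold change -1.62 ± 0.33 SE, adjusted p = 0.00647). Otc (ENSMUSG00000031173, chromosome X: 10252305 to 10321024), whose promoter window is shown above, was at 606.9, 680.6 and 439.5 CPM in chow and at 351.6, 332.6 and 288.0 CPM in vehicle. The groups did not overlap, and Otc fell 1.77-fold (log2 fold change -0.83 ± 0.22, adjusted p = 0.0225). The ornithine carrier Slc25a15 (ENSMUSG00000031482, chromosome 8: 22375551 to 22398597) fell from 356.5 ± 30.38 to 226.9 ± 44.4 CPM (log2 fold change -0.65 ± 0.18, adjusted p = 0.0264), again without overlap. Nags (ENSMUSG00000048217, chromosome 11: 102145513 to 102149477), the maker of the Cps1 cofactor, did not pass. It was at 41.92, 33.08 and 38.33 CPM in chow and at 40.78, 34.44 and 29.68 CPM in vehicle, ranges that overlap, with a log2 fold change of -0.11 (95% interval -0.50 to 0.29). Nags shares 443 exon bases with the antisense gene Gm11586, which had 12 counts over all libraries against 7457 for Nags.

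In the cytosolic steps, Asl (ENSMUSG00000025533, chromosome 5: 130011258 to 130029247) was at 906.0, 476.6 and 670.9 CPM in chow and at 333.6, 224.4 and 164.0 CPM in vehicle. It fell 2.84-fold without overlap (log2 fold change -1.51 ± 0.31, adjusted p = 0.00662). Arg1 (ENSMUSG00000019987, chromosome 10: 24915221 to 24927484), the last step, was at 1995, 1526 and 1426 CPM in chow and at 1150, 841.6 and 629.9 CPM in vehicle. Its fall was smaller, 1.89-fold (log2 fold change -0.92 ± 0.24, adjusted p = 0.022). Ass1 (ENSMUSG00000076441, chromosome 2: 31470207 to 31520672), which joins citrulline and aspartate, did not pass, with 1671, 1346 and 1329 CPM in chow and 1374, 940.5 and 780.9 CPM in vehicle. Vehicle replicate 1 reached into the chow range, and the log2 fold change was -0.49 with a 95% interval of -0.99 to 0.02 (adjusted p = 0.16). Without that mouse the adjusted p for Ass1 was 0.0494, and over all 11 alternatives it lay between 0.0494 and 0.903. The aspartate carrier Slc25a13 (ENSMUSG00000015112, chromosome 6: 6041218 to 6217173) had the lowest p of the 10. It was at 507.0, 469.0 and 441.4 CPM in chow and at 225.9, 176.6 and 181.2 CPM in vehicle, groups that stood far apart, and fell 2.43-fold (log2 fold change -1.28 ± 0.20, adjusted p = 0.00254).

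The pair that handles glutamine moved in opposite directions. Glul (ENSMUSG00000026473, chromosome 1: 153899944 to 153909723) was at 720.5, 875.2 and 858.1 CPM in chow and at 1445, 1639 and 1962 CPM in vehicle. Every vehicle mouse was above every chow mouse, and Glul rose 2.06-fold (log2 fold change 1.04 ± 0.20, adjusted p = 0.00477). Gls2 (ENSMUSG00000044005, chromosome 10: 128194457 to 128210004) was at 362.0, 302.0 and 314.3 CPM in chow and at 197.4, 126.3 and 76.25 CPM in vehicle. It fell 2.44-fold without overlap (log2 fold change -1.29 ± 0.33, adjusted p = 0.0194). Both genes overlap a gene on the other strand, Glul by 116 exon bases with Teddm2 (212 counts against 296763) and Gls2 by 97 bases with Spryd4 (5761 against 39036). Whether counting used strand is not stated in the labels, so reads of these stretches cannot be assigned with certainty. Glul also shares 93 exon bases with Mir8114 on its own strand, a gene that is not in the count table.

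Cps1, Asl, Slc25a13 and Glul passed under each of the 11 alternative settings tried for this comparison. Otc, Arg1, Slc25a15 and Gls2 did not, and without chow replicate 1, vehicle replicate 2 or vehicle replicate 3 only 4 members were called. With total counts alone as the scale, the median of all genes moved from -0.01 to 0.51, with 5510 genes called higher and 248 lower against 1606 and 1180, and 5 members passed: Cps1, Asl, Slc25a13 and Gls2 lower and Glul higher. On that scale Ass1 (0.04) and Nags (0.41) turned positive, while both stayed below the median of all genes.

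Levels can be compared between genes only per kilobase of exon. In chow, Cps1 stood first at 824 ± 176 CPM per kilobase (SD, n = 3), followed by Arg1 at 740 ± 136 and Ass1 at 600 ± 79.7. The step from Cps1 to Arg1 was smaller than the SD of either, and that from Arg1 to Ass1 was slightly larger than the SD of either. Glul came next at 246 ± 25.5 CPM per kilobase, and then Asl, Otc and Slc25a13, which lay within their spread of each other at 142 ± 44.5, 136 ± 29.1 and 124 ± 8.67. Gls2 at 93.9, Slc25a15 at 63.3 and Nags at 13.3 CPM per kilobase closed the order. In vehicle the order at the top was different. Glul was at 506 ± 78.5, Ass1 at 427 ± 127, Arg1 at 392 ± 117 and Cps1 at 268 ± 90.1 CPM per kilobase, and each step was smaller than the larger SD of the pair except that from Arg1 to Cps1, which was slightly larger than the SD of either. In OA Arg1 was first at 468.5 ± 81.66 CPM per kilobase, with Glul next at 439.4 ± 19.76. In OA-NO2 Arg1 was also first, at 579.9 ± 102.1, with Ass1 next at 507.4 ± 59.65. Both steps were smaller than the SD of Arg1, so the first place is not resolved. The order at the top depends on the length used: by the longest transcript, Arg1 was first in chow and Cps1 was in position 3, and Ass1 was first in vehicle and Glul second.

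The 5 enzymes of the cycle (Cps1, Otc, Ass1, Asl and Arg1) together summed to 8933 ± 1691 CPM in chow, 3960 ± 1183 in vehicle, 4816 ± 1520 in OA and 5534 ± 218.2 in OA-NO2 (SD, n = 3). The OA-NO2 mice were close together at 5511, 5328 and 5763 CPM, while the OA mice ranged from 3573 to 6511 CPM. These values depend on the scale. As a percent of all counts, without TMM scaling, the OA-NO2 mice were at 0.614, 0.520 and 0.533. On that scale the mean was 0.713 ± 0.0995% in chow, 0.456 ± 0.131% in vehicle, 0.510 ± 0.104% in OA and 0.556 ± 0.0511% in OA-NO2. The ratio of Cps1 to Glul in CPM was 7.88, 4.82 and 4.46 in the chow mice and 1.40, 0.857 and 0.529 in the vehicle mice. It was 0.961, 1.26 and 2.26 in OA and 1.44, 1.48 and 2.08 in OA-NO2. All 9 mice on the NASH diet were thus below all 3 chow mice in this ratio. The OA values overlapped with those of vehicle and of OA-NO2. Each OA-NO2 mouse was above each vehicle mouse, by little at the nearest pair (1.44 against 1.40). The ratio was not tested.

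**Figure D2:**
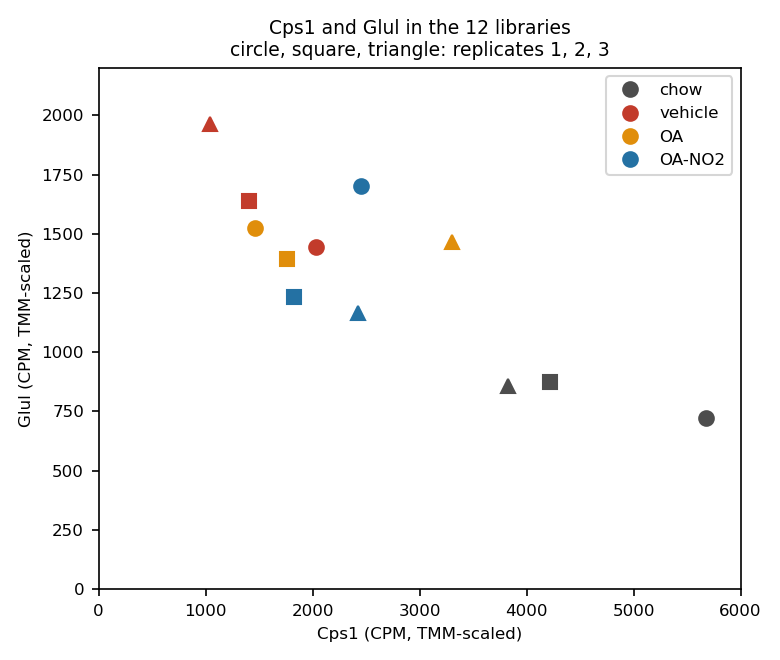
Glul (vertical axis, CPM) against Cps1 (horizontal axis, CPM) in the 12 mice, coloured by group, with the marker giving the replicate. The 3 chow mice lie at the lower right with the highest Cps1 and the lowest Glul, and vehicle replicate 3 lies at the upper left.

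The mice given OA were also compared with the chow mice, a contrast that shares the chow samples with the others. Asl fell (258.4 ± 86.38 against 684.5 ± 215.0 CPM, log2 fold change -1.41, adjusted p = 0.0142), as did Slc25a13 (log2 fold change -0.81, adjusted p = 0.0236) and Slc25a15 (log2 fold change -0.74, adjusted p = 0.0261). Glul rose to 1524, 1393 and 1464 CPM (log2 fold change 0.84, adjusted p = 0.0204). Thus 3 members were called lower, against 2.23% of all genes, and 1 higher, against 6.33%. Gls2 (log2 fold change -1.14, adjusted p = 0.0501) and Cps1 (-1.07, adjusted p = 0.0553) missed the threshold, with Cps1 at 1464, 1758 and 3306 CPM. The third OA mouse was thus nearest to chow for Cps1, although 8 of the 10 members did not overlap with chow, against 30.9% of all genes. Without that mouse, OA replicate 3, Cps1 and Gls2 were called too and the count was 6. Without chow replicate 1, OA replicate 1 or OA replicate 2 it was 0, without chow replicate 2 it was 1, and DESeq2 called 8.

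In the mice given OA-NO2, edgeR called 0 of the 10 members against chow, where 0.684% of all genes were called, while 6 members had an unadjusted p under 0.05, against 18.8% of all genes. DESeq2 called 4 members (Cps1, Otc, Slc25a13 and Glul) and 654 genes in all. Cps1 was at 2453, 1821 and 2425 CPM, below each chow mouse, with a log2 fold change of -1.04 (95% interval -1.73 to -0.34, adjusted p = 0.126). Glul was at 1703, 1232 and 1166 CPM, above each chow mouse, with a log2 fold change of 0.74 (95% interval 0.32 to 1.16, adjusted p = 0.0885). Otc, Slc25a15, Slc25a13 and Gls2 did not overlap with chow either, which makes 6 of 10 members against 21.5% of all genes. For Asl, Arg1, Ass1 and Nags the ranges overlapped.

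**Figure D3:**
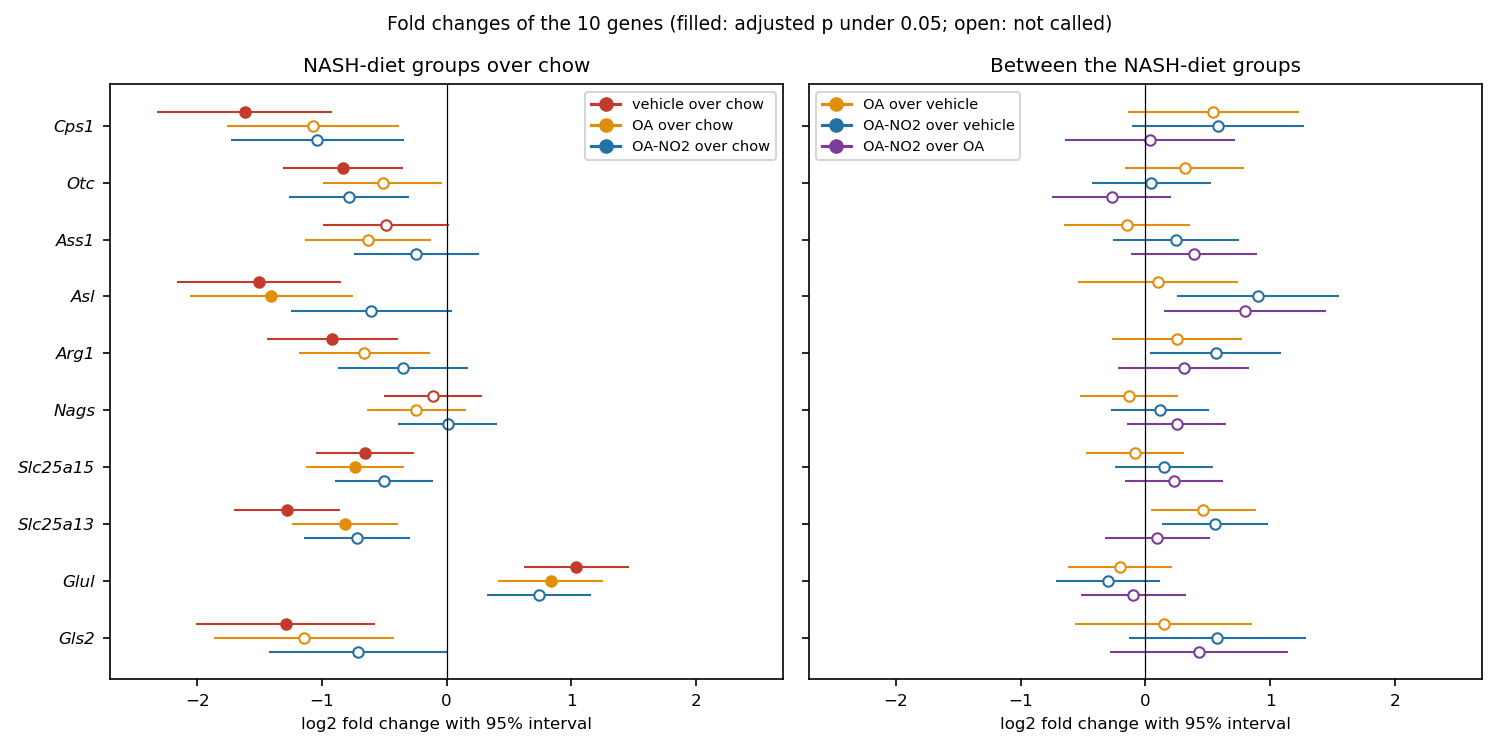
Log2 fold change (horizontal axis) with its 95% interval for each of the 10 genes in the 3 comparisons with chow (left) and the 3 comparisons among the NASH-diet groups (right). Filled points passed an adjusted p under 0.05 and open points did not. Glul lies to the right of 0 against chow, and all points on the right panel are open.

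The drug question, whether OA or its nitrated form changed these genes on the NASH diet, rests on 3 pairs of groups, given at the same dose for both fatty acids. Both contrasts with vehicle share the vehicle mice. For OA against vehicle, edgeR called 0 of the 10 members and 0% of all genes, and DESeq2 also called 0 members. Slc25a13 was the 1 member with an unadjusted edgeR p under 0.05, as had 3.9% of all genes (log2 fold change 0.47, 95% interval 0.04 to 0.89, adjusted p = 0.975). The CPM values overlapped for all 10 members, while 13.1% of all genes did not overlap. The intervals were wide: that of Cps1 ran from -0.14 to 1.23 and that of Asl from -0.54 to 0.75.

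For OA-NO2 against vehicle, edgeR called 0 members and 0.0207% of all genes, 3 members had an unadjusted p under 0.05, against 15.8% of all genes, and DESeq2 called 0 members. Asl was at 412.1, 530.3 and 407.0 CPM in OA-NO2, above each vehicle mouse, a log2 difference of 0.90 (95% interval 0.25 to 1.55, adjusted p = 0.194). Slc25a13 was at 253.9, 274.5 and 332.4 CPM, also above each vehicle mouse, a log2 difference of 0.56 (95% interval 0.14 to 0.98, adjusted p = 0.208). These 2 of 10 members did not overlap, against 19.7% of all genes, so the share was near the background. The third was Arg1, with a log2 difference of 0.56 (95% interval 0.04 to 1.09, adjusted p = 0.282). Values for 9 of the 10 members lay above 0 and that of Glul below it (-0.30, 95% interval -0.72 to 0.12), while 48% of all genes lay below 0. Some of the 9 were close to 0 and changed sign under alternatives. Otc (0.05) ran from -0.169 to 0.19, Nags (0.12) from -0.077 to 0.242 and Slc25a15 (0.15) from -0.045 to 0.308. The median of the members was 0.40, beside 0.02 over all genes. None of the 10 differences passed the test.

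The nitrated and the plain fatty acid differ by the nitro group. For OA-NO2 against OA, edgeR called 0 members and 0.00691% of all genes, and DESeq2 called 0 members. Asl alone had an unadjusted p under 0.05, as had 12% of all genes, and was the 1 member without overlap (14.3% of all genes had none): its OA values were 198.3, 219.5 and 357.4 CPM, and the log2 difference was 0.80 (95% interval 0.15 to 1.45, adjusted p = 0.35). For Cps1 the log2 difference was 0.04 (95% interval -0.65 to 0.72), for Glul -0.10 (-0.51 to 0.32) and for Gls2 0.43 (-0.28 to 1.14). These intervals include differences of either sign, so the missed threshold does not show that the compounds act alike.

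Other genes of nitrogen metabolism were read from lists, given here by counts and medians for vehicle over chow. Of 30 tested genes of nitrogen and glutamine handling beside the cycle, 4 rose and 6 fell, with a median log2 fold change of -0.37. Over all genes 11.1% were called higher and 8.16% lower, so the count that rose was near the background. Got1, the cytosolic aspartate aminotransferase, fell from 424.6 ± 197.5 to 114.0 ± 37.82 CPM (log2 fold change -1.90 ± 0.38, adjusted p = 0.00652). The amino acid transporters Slc38a4 (log2 fold change -1.13) and Slc7a2 (-1.22), the latter a carrier of arginine and other cationic amino acids, also fell. Aldh18a1, which starts proline and ornithine synthesis from glutamate, rose (log2 fold change 2.44, adjusted p = 0.00336) but stayed low, at 3.27 CPM in vehicle against 0.537 in chow. These 4 genes passed under all 11 alternatives. Further called genes of the list were picked out after their values were seen. Car5a, the mitochondrial carbonic anhydrase that supplies bicarbonate to Cps1, fell from 36.25 ± 5.417 to 18.21 ± 5.747 CPM (log2 fold change -0.99, adjusted p = 0.025). The glutamine transporter Slc38a3 fell (-1.03, adjusted p = 0.0198), as did ornithine aminotransferase Oat (-1.01, adjusted p = 0.0495). Cad, which makes carbamoyl phosphate for pyrimidines in the cytosol, rose (1.29, adjusted p = 0.0354). Rhbg is described with the pericentral genes. The count of genes that rose was 1 without chow replicate 1, chow replicate 3 or vehicle replicate 3 and 2 without chow replicate 2, and that of genes that fell was 3 without chow replicate 1, vehicle replicate 2 or vehicle replicate 3. With total counts alone 11 rose and 3 fell.

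Amino acid breakdown, the source of much of the ammonia, was lower over more of its list. Of 43 tested genes 26 fell, against 8.16% of all genes, and the other 17 did not pass. The median log2 fold change was -0.79. Etnppl, which breaks down phosphoethanolamine and releases ammonia, fell from 234.0 ± 52.17 to 33.74 ± 12.13 CPM (log2 fold change -2.79, adjusted p = 0.00413). Ahcy and Bhmt, of the methionine cycle, fell with log2 fold changes of -1.72 and -1.66, and Aadat, of lysine and tryptophan breakdown, fell with -1.31. The count of genes that fell was 9 without chow replicate 1, 11 without vehicle replicate 2, 8 without vehicle replicate 3 and 9 with total counts alone as the scale. Against chow, 10 genes of this list fell in OA, where 2.23% of all genes did. In OA-NO2 1 fell, Cth (named for being the only one), where 0.249% of all genes did.

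**Figure D4:**
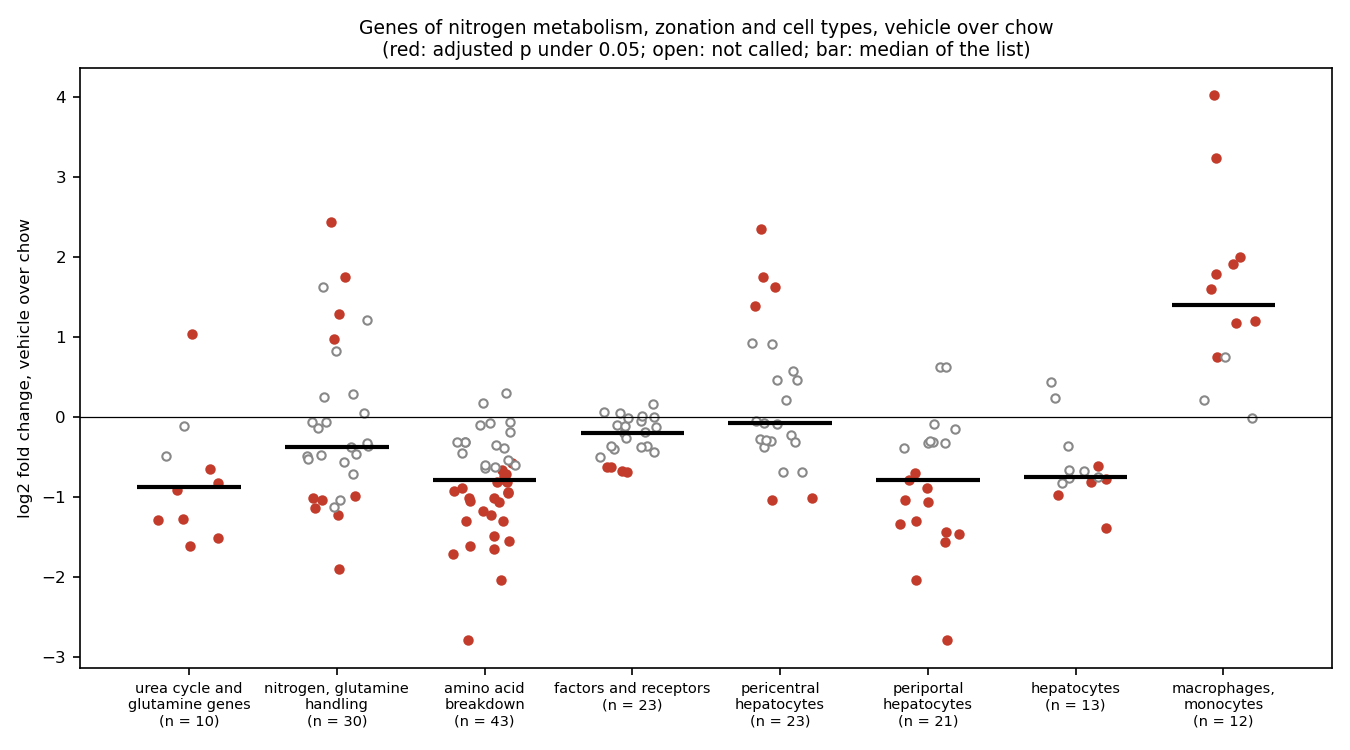
Log2 fold change of vehicle over chow (vertical axis) for each tested gene of 8 lists (horizontal axis, with the number of genes). Red points passed an adjusted p under 0.05, open points did not, and bars give list medians, which are -0.87 for the 10 urea cycle and glutamine genes, -0.79 for amino acid breakdown and 1.40 for macrophages and monocytes.

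Of 23 transcription factors and hormone receptors known to act on urea cycle genes, 19 did not pass (median log2 fold change -0.20). The other 4 fell, against 8.16% of all genes. They were the insulin receptor Insr (log2 fold change -0.68, adjusted p = 0.00936), the coactivator Ppargc1a (-0.69, adjusted p = 0.0157), the hepatocyte factor Hnf4a (-0.62, adjusted p = 0.0278) and Klf15, which acts on amino acid breakdown genes (-0.62, adjusted p = 0.0331). These calls depended on the scale and on single libraries: with total counts alone 0 fell and 2 rose, and the count that fell was 2 without chow replicate 1 or vehicle replicate 2 and 1 without vehicle replicate 3.

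Since the cycle lies around the portal vein and Glul around the central vein, markers of both zones were counted beside them. Of 21 periportal genes 12 fell, against 8.16% of all genes, and 9 did not pass (median log2 fold change -0.79). Hal, which breaks down histidine, fell from 578.1 ± 162.5 to 140.9 ± 62.69 CPM (log2 fold change -2.04, adjusted p = 0.00938). Pck1, of glucose synthesis, and the growth factor Igf1 fell with log2 fold changes of -1.44 and -1.34, although both had an adjusted p of 0.0516 without vehicle replicate 3. The periportal list shares Etnppl, Hal and other genes with amino acid breakdown. Its count was 5 without chow replicate 1, 7 without chow replicate 3, 6 without vehicle replicate 2, 2 without vehicle replicate 3 and 4 with total counts alone.

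Of 23 pericentral genes 4 rose and 2 fell (median log2 fold change -0.07). Over all genes 11.1% were called higher and 8.16% lower, so these counts were near the background. Slc1a4, a carrier of neutral amino acids, rose (log2 fold change 2.35, adjusted p = 0.00254), as did Csad, of taurine synthesis (1.39, adjusted p = 0.00864), and Rhbg, an ammonia channel (1.75, adjusted p = 0.0185). The vasopressin receptor Avpr1a fell (-1.04, adjusted p = 0.00995). The remaining calls were Sp5, which rose, and Oat, given above. Rhbg stood at only 1.96 CPM in vehicle and 0.590 in chow and lost its call without chow replicate 1, chow replicate 3 or vehicle replicate 3 (adjusted p up to 0.0821). The count that rose was 2 without chow replicate 1 or vehicle replicate 3, and 9 with total counts alone. The count that fell was 1 when any chow mouse was left out, without vehicle replicate 2, without vehicle replicate 3, and under relative log expression scaling, and 0 with total counts alone. The summed CPM of the list was lower in vehicle (10330 to 14080) than in chow (17530 to 21730), but most of that sum came from Cyp2e1 (8586 against 13850 CPM, not called) and Oat (1620 against 3256 CPM), so it says little of the other genes.

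Many markers of macrophages, stellate cells and cholangiocytes were higher in vehicle, opposite to most members. Over all genes 11.1% were called higher and 8.16% lower. Of 12 macrophage and monocyte markers 9 rose in vehicle, and their summed level was 586.8 to 826.0 CPM against 212.3 to 427.7 in chow. The Kupffer cell markers Clec4f (86.15 CPM in vehicle, 86.89 in chow) and Vsig4 (39.84 and 33.98 CPM) did not pass. Of 10 stellate cell and fibroblast markers 8 rose (627.5 to 1120 against 327.5 to 403.4 CPM), and of 6 tested cholangiocyte markers 5 rose (72.24 to 490.0 against 26.68 to 43.33 CPM). Named after their values were seen, the 5 were Spp1, Cftr, Epcam, Krt19 and Krt7, and Spp1, which macrophages can also make, held most of the sum (312.9 CPM in vehicle). Of 13 hepatocyte markers 5 fell (Alb, Apoh, Fgb, Serpinc1 and Rbp4, also named after their values were seen) and 8 did not pass. Among those 8, Hp (4756 CPM in vehicle, 4031 in chow) and Trf (372.3 and 274.8 CPM) had higher means in vehicle, and the others had lower means. The sum of the 13 was 68680 to 84670 CPM against 156900 to 184900. Alb alone held most of that sum (42380 CPM in vehicle, 111300 in chow), so it says little of the other markers. The count of stellate markers was 5 without chow replicate 1, chow replicate 3 or vehicle replicate 3. That of cholangiocyte markers was 1 without chow replicate 1, chow replicate 2, vehicle replicate 2 or vehicle replicate 3, and 3 without chow replicate 3. For hepatocyte markers it was 1 without chow replicate 1 or vehicle replicate 3, 2 without chow replicate 3, 3 without vehicle replicate 1 or vehicle replicate 2, 2 with no filter, 1 with total counts alone, and 10 in DESeq2.

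The same markers also varied within the groups, not always opposite to the members. In OA replicate 3, where 8 members were highest of their group, the cholangiocyte sum was 35.2 CPM against 391.8 and 219.1 in the other OA mice, and the macrophage sum was 489.2 against 962.1 and 872.0. In vehicle replicate 1, highest for 9 members, the cholangiocyte sum was 72.24 against 490.0 and 433.4 CPM. Its hepatocyte sum, 84440 CPM, was close to the 84670 of vehicle replicate 2. Vehicle replicate 3, lowest for 8 members, had a lower cholangiocyte sum than vehicle replicate 2 (433.4 and 490.0 CPM). In chow replicate 1, highest for 7 members, the macrophage sum was the lowest of chow (212.3 against 330.0 and 427.7 CPM). The cholangiocyte sum there was the highest of chow (43.33 against 29.91 and 26.68 CPM). The OA-NO2 mice had macrophage sums of 461.4 to 480.3 CPM and hepatocyte sums of 94700 to 132500 CPM. Mitochondrial transcripts made up 13.1 ± 2.13% of counts in chow, 9.37 ± 4.24% in vehicle, 8.36 ± 0.254% in OA and 8.01 ± 1.86% in OA-NO2. The vehicle mice were at 6.63, 7.22 and 14.25%, so vehicle replicate 3, lowest for 8 members, lay within the chow range of 10.68 to 14.46%. The part of cell makeup or of these transcripts in the differences of the members was not tested.

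The genes whose log2 CPM followed Cps1 most closely over the 12 mice, among 7097 genes of at least 10 CPM, were Abat (Pearson r = 0.965), Dpys (0.964), Aass (0.957), Neb (0.957) and Serpind1 (0.953). Abat breaks down GABA, Dpys pyrimidines and Aass lysine, and Serpind1 is a secreted inhibitor of thrombin. With the group means taken out, r was 0.925 for Abat, 0.903 for Dpys, 0.876 for Aass, 0.83 for Neb and 0.823 for Serpind1. The genes most like Glul were the zinc importer Slc39a4 (0.957), Frrs1 (0.951), Rnpep (0.950), the small heat shock protein Hspb1 (0.949) and Nek6 (0.940), and their within-group values were lower, between 0.641 and 0.803. The ranking depends on the measure: by Spearman correlation, 2 of the 5 genes for Cps1 and 1 of the 5 for Glul were again among the top 5. The points share group, library and scaling, so these values describe the 12 libraries and carry no test.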

How the data were processed

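Liver RNA of 12 mice was sequenced as paired reads from KAPA mRNA libraries, per the labels' protocols. The authors deposited 1 table of raw counts, the reads assigned to each gene as whole numbers with no scaling. The submitters' processing notes name Trimmomatic 0.35, HISAT2 2.1.0, SAMtools 1.2 and HTSeq with build GRCm38. Not given in the sources used here: annotation release, strand setting, treatment of reads with several matches. Symbols and coordinates come from GENCODE M21 (24914 of 24983 identifiers matched).

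Counts of the 12 libraries were fitted together by quasi-likelihood (edgeR 4.0.16 under R 4.3.3) with TMM scaling and the default filter (minimum count 10), 1 coefficient per group. P-values were adjusted by Benjamini-Hochberg over 14469 genes, and genes were called at 0.05. SE is the log2 fold change over the root of its F statistic. The model was tested on simulated counts. Replicates of a group differed beyond sampling noise (lowest chi-square per degree of freedom 24.3). Alternatives were relative log expression scaling, total counts alone, no filter, only the groups compared, DESeq2 1.42.0 and leaving out each library. Likeness was the Pearson correlation of log2(CPM + 0.5).

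The members, the lists (1 listed gene, Dao, was not in the table) and the rules were chosen with earlier results of these data known. The naming rule took all 10 members, from the lists on nitrogen handling, amino acid breakdown, factors, and both liver zones the 4 with the lowest p in vehicle over chow, from cell type lists at most 2 defining markers, and the 5 genes most like Cps1 and Glul, leaving out predicted genes and pseudogenes. The other lists not described in the text were endothelium (8 tested, 0 called, median log2 fold change -0.22 for vehicle over chow) and lymphocytes (8 tested, 2 called higher). Some genes of the lists are not reported here by name.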

Additional observations from a re-analysis of the deposited data

How the results depend on the processing

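No paired analysis was run, since the libraries come from separate animals by their ear tags and the labels state no pairing. The labels give no replicate numbers, and those used here only follow the order of deposit. Over the 660 values of the 10 members under alternatives, 580 kept their direction and side of the threshold, 36 lost a call, 14 gained one, 30 that were not called changed sign, and 0 called values reversed. For vehicle over chow, 8 members were called, 5 with total counts alone, and between 4 and 9 when 1 library was left out. For OA over chow, 4 were called, 2 with total counts alone, 8 by DESeq2, and between 0 and 6 when 1 library was left out. For OA-NO2 over chow, 0 were called, 1 with total counts alone and 4 by DESeq2. For the 3 contrasts among the NASH-diet groups the count of members stayed at 0 under every alternative run. Total counts alone shifted the median of all genes to 0.51, 0.42 and 0.34 in the 3 contrasts with chow. It turned the list medians of vehicle over chow to 0.15 for nitrogen and glutamine handling, 0.31 for factors and receptors, 0.45 for pericentral hepatocytes and 0.29 for endothelium. The pericentral median, -0.07, lay between -0.169 and 0.036 when 1 library was left out, and was above 0 without chow replicate 2, chow replicate 3 or vehicle replicate 1. The causes of these changes were not tested. The same scale gave 3649 genes higher and 127 lower in OA over chow, against 916 and 322, and 1099 and 28 in OA-NO2 over chow, against 63 and 36. Over all genes, OA-NO2 over vehicle gave 3 calls against 151 with no filter, 62 with only the groups compared and 287 by DESeq2. OA-NO2 over OA gave 1 against 10 with no filter, 130 without OA replicate 3 and 52 by DESeq2. Vehicle over chow gave 2786 calls, 5758 with total counts alone, and between 1200 and 2276 when 1 library was left out. OA over chow gave 1238, 3776 with total counts alone, 776 with only the groups compared, and between 347 (without OA replicate 1) and 2232 (without OA replicate 3). OA-NO2 over chow gave 99, 262 with no filter, 1127 with total counts alone, 654 by DESeq2, 53 with only the groups compared, and between 15 and 71 when 1 library was left out.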
